A study of Mus musculus with 16 samples.

Results

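The genotype difference was measured here with both genotypes given the same compound. The series holds 4 groups of 4 liver libraries, and the 2 groups given CDDO-Me, 8 of the 16 libraries, form this comparison: 4 from Nrf2-/- mice (KO CDDO-Me) and 4 from wild-type mice (WT CDDO-Me). The libraries were chosen by their genotype and treatment labels, across all genes. All mice were C57BL/6. In both groups CDDO-Me was injected into the peritoneum at 3 mg/kg in undiluted DMSO, 24 h and 1 h before part of the liver was cut out, and the tissue sequenced was the liver at that operation (day 0). The other 8 libraries came from WT mice given DMSO alone at 1 µL/g and from KO mice left untreated, so that without the compound the vehicle goes with the genotype. Age and sex are not given in the labels, nor is the part of the gene that the null allele lacks. The series counts 4 animals per group but ties no library to an animal, so the p-values measure only the spread between libraries.

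NRF2, encoded by Nfe2l2, is a transcription factor that KEAP1 binds and sends for degradation by the proteasome. Electrophiles modify KEAP1, and NRF2 then accumulates, pairs with small MAF proteins and binds antioxidant response elements near genes for glutathione synthesis, drug conjugation, efflux and NADPH supply. CDDO-Me, also called bardoxolone methyl, is a synthetic triterpenoid known as a strong activator of this pathway through KEAP1. The liver is a main site of these detoxification enzymes.

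Sequencing depth was uneven. Total counts per library were 99284626 in WT CDDO-Me 1, between 13809649 and 14907764 in WT CDDO-Me 2 to 4, and between 21432833 and 33827313 in the KO CDDO-Me libraries. The share of counts on ribosomal RNA genes was 0.194% to 0.510% in WT CDDO-Me 2 to 4, but 0.0105% in WT CDDO-Me 1 and 0.00108% to 0.00768% in the 4 KO CDDO-Me libraries, so that this split nearly goes with the genotype. The annotated RNAs Gm42418, Gm26917 and AY036118 together took 1.88% to 5.59% of counts in WT CDDO-Me and 0.300% to 0.863% in KO CDDO-Me. By that measure WT CDDO-Me 1, at 3.13%, lay with the other WT libraries and the split went fully with the genotype. Transcripts of the mitochondrial genome took 14.7% of counts in WT CDDO-Me 4 and 2.57% to 3.89% in the other 7. Set against WT CDDO-Me 1 alone, which assumes that this lone library varies like the others, the 4 KO CDDO-Me libraries differed in 138 genes, 123 lower and 15 higher, and 116 of these were among the 534 genes called below. Albumin (Alb) took 3.90% to 4.85% of counts in WT CDDO-Me and 5.05% to 6.49% in KO CDDO-Me and all 16 hepatocyte markers of the list were detected.

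KO CDDO-Me liver had far less RNA of detoxification genes than WT CDDO-Me liver, and more of some genes for fatty acid synthesis and amino acid breakdown. Of 16206 genes tested, 534 (3.30%) were called at an adjusted p under 0.05 (edgeR, quasi-likelihood, adjusted by Benjamini and Hochberg): 362 (2.23%) were lower in KO CDDO-Me and 172 (1.06%) were higher. At least 4-fold differences were seen for 102 of the lower genes and 23 of the higher genes. The 4 KO and 4 WT libraries did not overlap for 526 of the 534 called genes, against 19.1% of all genes tested (9.82% lower and 9.25% higher in KO CDDO-Me). The median log2 fold change over all genes tested was -0.01, and 8320 of the 16206 had a negative one. The split by direction turned in the limma fit on log2(FPKM + 0.1), where 304 genes were lower and 592 higher and the median over all genes was 0.11. That fit differs in test, scaling and filter at once, and the cause of the turn was not tested. Leaving out each of the 8 libraries in turn gave between 184 and 270 lower genes and between 79 and 154 higher genes. The total fell by more than 1.5 times without any one of WT CDDO-Me 2, 3 or 4 (280 to 334 genes) or KO CDDO-Me 1, 2 or 3 (265 to 303 genes), and it rose to 820 without WT DMSO 4.

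**Figure D1:**
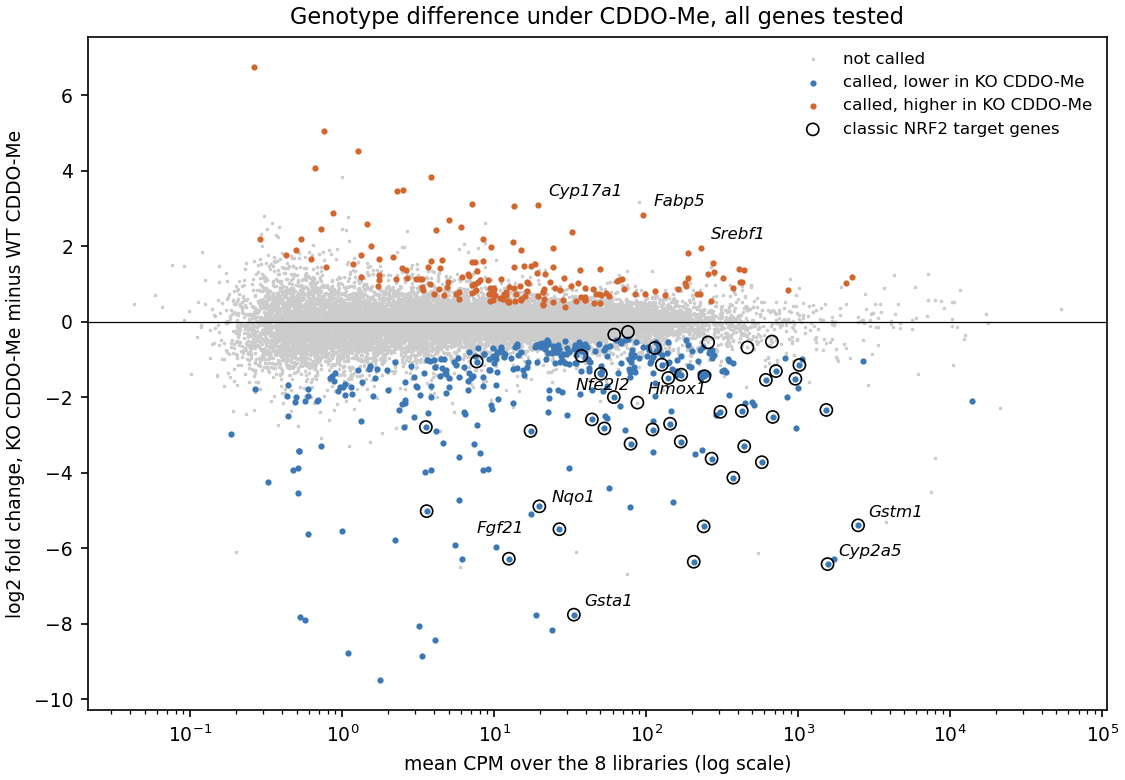
Log2 fold change of KO CDDO-Me minus WT CDDO-Me (vertical axis) against mean CPM over the 8 libraries (horizontal axis, log scale) for the 16206 genes tested. Blue and orange points are the 362 genes called lower and the 172 called higher, and all 44 rings, the classic NRF2 target genes, lie below 0.

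The targeted gene itself was still transcribed in the KO. Nfe2l2 (chromosome 2, 75675513 to 75704641, minus strand, GRCm38) had 39.5, 36.6, 45.5 and 38.0 CPM (counts relative to the library total, scaled by TMM) in WT CDDO-Me 1 to 4. The 4 KO CDDO-Me libraries, in the same order, had 19.8, 15.7, 21.0 and 19.0 CPM. Every KO library lay below every WT library. The log2 fold change was -1.08 ± 0.26 (standard error) with an adjusted p of 0.0283 (edgeR). It was not called in any of the 8 fits that left out 1 library, where the adjusted p reached 0.102 without KO CDDO-Me 2. Counts over whole genes do not show which exons the remaining RNA holds.

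Known NRF2 target genes were lower almost throughout. Of 45 genes on a list of classic targets, 44 passed the filter on low counts. All 44 had a negative log2 fold change, and 36 were called lower, none higher. The median was -2.45, against -0.01 over all genes tested. The list was written with earlier results of these data known. Set against WT CDDO-Me 1 alone, 43 of the 44 were negative and 28 were called. The 8 not called in the full comparison were Gclm, Hmox1, Prdx1, Txn1, Taldo1, Akr1c12, Ces2g and Sqstm1. Nqo1, the quinone reductase most used as an NRF2 readout, had 45.9, 40.2, 36.4 and 30.7 CPM in the WT CDDO-Me libraries and 1.98, 0.766, 1.56 and 0.825 CPM in the KO CDDO-Me libraries. The groups were far apart, 29.6-fold by the fitted values (log2 fold change -4.89 ± 0.32, adjusted p = 1.06e-07, edgeR). Osgin1, an oxidative stress response gene, Htatip2, a short-chain reductase, Entpd5, a nucleotidase of the endoplasmic reticulum, and Pir, an iron-binding nuclear protein, were 9.02-, 6.01-, 5.14- and 5.28-fold lower. These 4 were named after their values were seen, and Pir is not on the list.

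Hmox1, heme oxygenase, was not called in the full fit. It had 95.0, 104, 105 and 266 CPM in WT CDDO-Me and 25.4, 28.5, 24.1 and 51.2 CPM in KO CDDO-Me. The groups did not overlap, but library 4 stood high in both, and the adjusted p was 0.0902 (log2 fold change -2.14 ± 0.66, edgeR). It was called in the fit of only the 8 libraries (adjusted p = 0.00419, edgeR) and without WT DMSO 4 (adjusted p = 0.00321, edgeR), and in none of the 8 fits that left out a CDDO-Me library (0.102 to 0.278). Gclm, the modifier subunit of the enzyme that starts glutathione synthesis, had 240 to 335 CPM in WT CDDO-Me and 172 to 228 CPM in KO CDDO-Me. Its adjusted p was 0.326 (edgeR, log2 fold change -0.55 ± 0.27), and 0.0270 in the fit of only the 8 libraries.

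Promoter sequences of some target genes carried the core of the antioxidant response element. RefSeq windows (GRCm38.p6) from 250 bases before to 50 bases after each gene's start were searched on both strands for TGACNNNGC, the core of that element. A match was found for 12 of the 39 classic target genes that have a window (30.8%), for 53 of 248 genes called lower (21.4%), for 16 of 129 called higher (12.4%) and for 1779 of all 10605 genes tested that have one (16.8%). Among the genes lower by at least 4-fold the share was 10 of 60 (16.7%). The match is a description of these windows; elements farther away were not searched. The 7 stretches below show the match in capitals with 20 bases on each side, read along the gene's strand, for genes called lower whose match lies before the start. They were chosen with the values known, for enzymes and pumps of detoxification and NADPH supply and for Pir, from 49 such stretches of 41 genes; 5 of the 41 have more than 1 stretch, Ugdh among them.
Htatip2, chr7:49759443-49759491, plus strand: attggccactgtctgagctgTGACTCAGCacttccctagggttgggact
Pir, chrX:164269197-164269245, plus strand: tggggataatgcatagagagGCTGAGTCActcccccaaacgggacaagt
Ugdh, chr5:65435946-65435994, minus strand: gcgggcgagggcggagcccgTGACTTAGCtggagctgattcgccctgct
Gsta3, chr1:21240444-21240492, plus strand: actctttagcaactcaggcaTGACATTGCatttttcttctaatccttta
Txnrd1, chr10:82859094-82859142, plus strand: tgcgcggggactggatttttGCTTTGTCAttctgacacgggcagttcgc
Abcc2, chr19:43782190-43782238, plus strand: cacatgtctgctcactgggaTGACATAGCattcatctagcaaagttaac
G6pdx, chrX:74428909-74428957, minus strand: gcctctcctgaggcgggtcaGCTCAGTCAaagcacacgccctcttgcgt
The match ends between 41 and 206 bases before the start in these 7 windows. In Pir, Txnrd1 and G6pdx it lies on the strand opposite to the gene, so the capitals show its reverse complement.

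Among the regulators of the pathway, 3 of 14 genes were called lower and none higher. Besides Nfe2l2 these were Mafg, a small MAF partner of NRF2, and Bach2, a repressor that binds the same kind of element. Mafg had 88.1 to 116 CPM in WT CDDO-Me and 50.5 to 65.0 CPM in KO CDDO-Me, and Bach2 had 14.1 to 19.8 and 6.41 to 11.8 CPM. Mafg and Bach2 were each called in 1 of the 8 fits without a library, with adjusted p-values (edgeR) up to 0.0961 without KO CDDO-Me 3 and 0.149 without KO CDDO-Me 1.

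Glutathione synthesis and recycling was lower in part. Of 21 genes, 5 were called lower and none higher, with a median log2 fold change of -0.68. Gclc, the catalytic subunit that starts glutathione synthesis, had 1118, 1355, 1230 and 925 CPM in WT CDDO-Me and 153, 194, 259 and 199 CPM in KO CDDO-Me. The highest KO library thus lay well below the lowest WT library (log2 fold change -2.52 ± 0.20, adjusted p = 7.81e-07, edgeR). Slc7a11, the cystine importer, was low and scattered in WT CDDO-Me, with 4.89, 19.1, 0.553 and 3.30 CPM, and lower in KO CDDO-Me, with 0.162, 0.287, 0.0956 and 0.309 CPM. Its log2 fold change was -5.02 ± 1.18, and it was called in 3 of the 8 fits without a library, with the adjusted p (edgeR) rising from 0.0278 to as much as 0.0954 without KO CDDO-Me 3. Without WT CDDO-Me 2 the difference was 13.9-fold in place of 32.4-fold. Gss, which completes glutathione, was 2.29-fold lower and Gsr, which reduces it again, 2.20-fold lower. Oplah, which returns 5-oxoproline to glutamate, was 1.70-fold lower. Gsr was called in none of the 8 fits without a library and Oplah in 2, with adjusted p-values (edgeR) up to 0.0782 without WT CDDO-Me 3 and 0.0904 without WT CDDO-Me 4.

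The glutathione transferases, which attach glutathione to electrophiles, held some of the deepest differences. Of 23 genes, 10 were called lower and none higher. Gstm1 was among the most abundant transcripts of the comparison: 4879, 4194, 5538 and 4757 CPM in WT CDDO-Me against 110, 114, 120 and 117 CPM in KO CDDO-Me. The KO libraries agreed within a narrow band, 42.0-fold below WT (log2 fold change -5.39 ± 0.33, adjusted p = 4.43e-08, edgeR). Gstm3 had 324 to 468 CPM in WT CDDO-Me and 3.85 to 6.75 CPM in KO CDDO-Me, and Gstm4 had 139 to 146 and 11.7 to 20.0 CPM. Gsta1 had 44.7 to 96.8 CPM in WT CDDO-Me and 0.223 to 0.378 CPM in KO CDDO-Me, 217-fold lower by the fitted values. Gsta2 was 45.1-fold and Gsta4 7.08-fold lower. Gsta1, Gsta2 and 2 further annotated copies share much of their sequence, as do Gstp1 and Gstp2, so how reads were divided among them is uncertain. Gstp1 had 2129 to 3277 CPM in WT CDDO-Me and 476 to 547 CPM in KO CDDO-Me. On the length-scaled FPKM values it averaged 3030 and 656, close to Gstm1 at 2967 in WT CDDO-Me but far above Gstm1 at 76.8 in KO CDDO-Me.

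**Figure D2:**
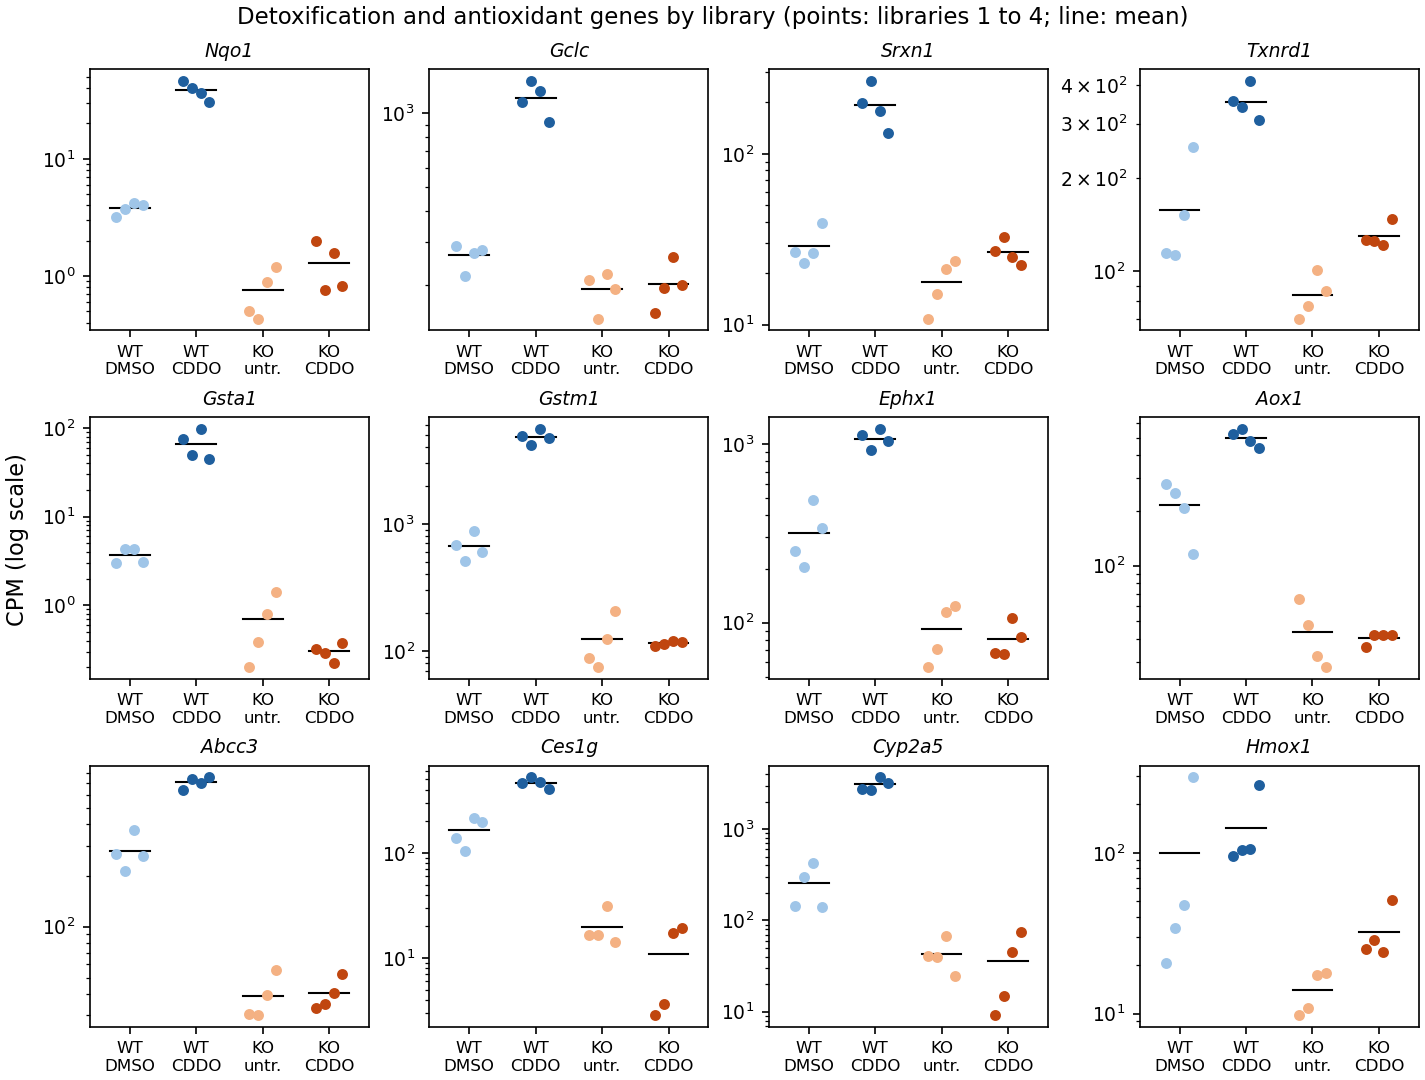
CPM (vertical axes, log scale) of 12 detoxification and antioxidant genes in each library of the 4 groups, with points for libraries 1 to 4 and a line for the mean. WT CDDO-Me lies above KO CDDO-Me in every panel without overlap, and Hmox1 shows library 4 high in both WT groups and in KO CDDO-Me.

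Of 19 thioredoxin and peroxiredoxin genes, 3 were called lower and none higher. Srxn1, which repairs overoxidised peroxiredoxins, had 197, 266, 177 and 133 CPM in WT CDDO-Me and 27.0, 32.7, 24.8 and 22.5 CPM in KO CDDO-Me, 7.23-fold lower without overlap. Txnrd1, thioredoxin reductase, had 355, 339, 411 and 307 CPM in WT CDDO-Me and 126, 125, 122 and 148 CPM in KO CDDO-Me, 2.71-fold lower without overlap. Both kept their calls in all 8 fits without a library. Cat, the catalase gene, was 2.07-fold lower but was called in none of these 8 fits, where the adjusted p (edgeR) reached 0.146 without KO CDDO-Me 2.

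Reductases and oxidases of quinones, carbonyls and aldehydes followed. Of 26 quinone, carbonyl and aldehyde reductase genes, 8 were called lower and none higher. Cbr3, a carbonyl reductase, had 28.3, 33.9, 20.8 and 15.5 CPM in WT CDDO-Me and 0.283, 0.383, 0.255 and 0.344 CPM in KO CDDO-Me. This was a 77.5-fold difference (log2 fold change -6.28 ± 0.43, adjusted p = 1.23e-07, edgeR). Ephx1, microsomal epoxide hydrolase, had 921 to 1208 CPM in WT CDDO-Me and 67.2 to 106 CPM in KO CDDO-Me. Akr1b8 was 6.91-fold, Cbr1 6.50-fold and Akr1c19 2.54-fold lower. Of 18 aldehyde dehydrogenase and oxidase genes, 5 were called lower and none higher. Aox1, aldehyde oxidase, had 436 to 555 CPM in WT CDDO-Me and 36.3 to 41.8 CPM in KO CDDO-Me. Aldh1a1, a retinal dehydrogenase, had 994, 1702, 1865 and 1550 CPM in WT CDDO-Me against 252, 279, 726 and 557 CPM in KO CDDO-Me; the lowest WT library is the deep one, and KO CDDO-Me 1 and 2 lie below 3 and 4. Aldh3a2, Aldh3b1 and Aldh2 were 1.97- to 2.39-fold lower. Aldh2, Aldh3a2 and Aldh1a1 were called in 0, 2 and 7 of the 8 fits without a library, with adjusted p-values (edgeR) up to 0.136 without WT CDDO-Me 4, 0.117 without KO CDDO-Me 1 and 0.0502 without KO CDDO-Me 2.

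NADPH supply and iron handling were lower in some of their genes. Of 15 genes for the pentose phosphate pathway and NADPH supply, 5 were called lower and none higher, around a median of -0.27. Tkt, transketolase, had 180 to 237 CPM in WT CDDO-Me and 64.8 to 87.5 CPM in KO CDDO-Me. Me1, malic enzyme, had 209 to 305 and 64.9 to 138 CPM, and Pgd, the second dehydrogenase of the pathway, had 65.2 to 83.0 and 25.4 to 33.2 CPM. G6pdx, the first dehydrogenase, and H6pd, its counterpart in the endoplasmic reticulum, were 2.07- and 1.95-fold lower. G6pdx was called in 1 and H6pd in none of the 8 fits without a library, with adjusted p-values (edgeR) up to 0.139 without KO CDDO-Me 2 and 0.115 without WT CDDO-Me 3. Of 24 genes for heme breakdown and iron handling, 4 were called lower and none higher. Blvrb, biliverdin reductase B, was 6.22-fold lower, with 165 to 208 CPM in WT CDDO-Me and 24.7 to 34.2 CPM in KO CDDO-Me. Slc48a1, a heme transporter, was 3.23-fold lower. The ferritin chains Ftl1 and Fth1 were 2.91- and 2.47-fold lower, with the reservation that both have many processed copies in the genome.

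Some genes for conjugation with glucuronic acid and for efflux from the cell were also called lower. Of 27 glucuronidation and sulfation genes, 7 were called lower and 1 higher, with a median of -1.02. Ugdh, which makes the glucuronic acid donor, had 482, 552, 578 and 453 CPM in WT CDDO-Me and 96.8, 108, 102 and 88.6 CPM in KO CDDO-Me. The KO values were 5.22-fold lower and did not overlap (adjusted p = 1.48e-07, edgeR). The transferases Ugt2b35, Ugt2b5, Ugt2b36, Ugt2b38 and Ugt1a9 were 3.73- to 9.83-fold lower. Ugt2b38 had 73.3 CPM in WT CDDO-Me 1 against 205 to 230 CPM in WT CDDO-Me 2 to 4; it was called in 2 of the 8 fits without a library, with an adjusted p (edgeR) up to 0.0848 without KO CDDO-Me 2. The gene called higher was Sult1a1, a sulfotransferase, named here as the exception: 91.1 to 147 CPM in WT CDDO-Me and 203 to 270 CPM in KO CDDO-Me. It was called in 3 of the 8 fits, with an adjusted p (edgeR) up to 0.0728 without WT CDDO-Me 2.

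Of 16 ABC efflux pumps, 6 were called lower and none higher. Abcc3, which exports conjugates from the hepatocyte to the blood, had 636, 739, 701 and 757 CPM in WT CDDO-Me and 33.1, 35.0, 40.7 and 52.9 CPM in KO CDDO-Me. The groups were 17.5-fold apart (log2 fold change -4.13 ± 0.25, adjusted p = 4.43e-08, edgeR). Abcc4, another pump to the blood, was 7.42-fold lower and Abcc1 2.77-fold lower. Abcc2, the pump to bile for conjugates, was 2.21-fold lower, Abcg2 1.97-fold and Abcb4, the phospholipid floppase, 1.84-fold. The calls of Abcc2, Abcb4 and Abcg2 held in 5, 6 and 1 of the 8 fits without a library, and each had its highest adjusted p (0.0658, 0.0654 and 0.164, edgeR) without KO CDDO-Me 2. Abcc12, named by its fold, had 4.43 to 8.73 CPM in WT CDDO-Me and 2 counts in all over the KO CDDO-Me libraries, against 1123 counts in WT CDDO-Me.

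Phase I enzymes differed by family. Of 39 cytochrome P450 genes for foreign compounds, 6 were called lower and none higher. Cyp2a5, the coumarin hydroxylase, had 2784, 2652, 3680 and 3218 CPM in WT CDDO-Me and 9.23, 14.9, 45.4 and 74.4 CPM in KO CDDO-Me. The groups were 85.6-fold apart, or 133-fold without KO CDDO-Me 4, and within KO CDDO-Me libraries 1 and 2 lay below libraries 3 and 4. Its near-identical neighbour Cyp2a4 was 216-fold lower by the fitted values (344-fold without KO CDDO-Me 4), at 0.0956 to 0.344 CPM in KO CDDO-Me; reads of the pair may be divided wrongly. Cyp1a2 had 635 to 1124 CPM in WT CDDO-Me and 99.3 to 289 CPM in KO CDDO-Me, with the same order inside the KO group. Cyp1a1, Cyp3a59 and Cyp2d22 were 3.50-, 1.73- and 1.53-fold lower. Cyp1a1 and Cyp3a59 were called in 2 of the 8 fits each, and both had their highest adjusted p (0.123 and 0.127, edgeR) without KO CDDO-Me 1.

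Carboxylesterases, which cleave ester drugs and lipids, had a median log2 fold change of -1.24, and 6 of 15 were called lower and none higher. Ces1g had 464, 522, 476 and 403 CPM in WT CDDO-Me and 2.87, 3.64, 17.4 and 19.5 CPM in KO CDDO-Me. All KO libraries were low, and 1 and 2 were lower than 3 and 4. Ces1b had 134 to 168 CPM in WT CDDO-Me and 3.09 to 8.23 CPM in KO CDDO-Me. Ces1a, Ces2c, Ces1f and Ces1d were 4.45- to 23.2-fold lower; Ces1a, at the upper end, was 35.4-fold lower without KO CDDO-Me 2. Ces1d was called in 7 of the 8 fits without a library, with an adjusted p of 0.0575 (edgeR) without KO CDDO-Me 2.

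Among 23 nuclear receptors and partners that sense foreign compounds and lipids, 3 were called lower and 1 higher. Nr1i3 encodes CAR, the receptor that drives many drug-metabolising genes. It had 168, 257, 165 and 218 CPM in WT CDDO-Me and 8.13, 15.6, 21.2 and 28.9 CPM in KO CDDO-Me, 10.9-fold lower (log2 fold change -3.45 ± 0.57, adjusted p = 0.00205, edgeR). Pparg, a receptor for fatty acids, was 3.47-fold lower (adjusted p = 0.00150, edgeR). Ppargc1a, a coactivator of gluconeogenesis and mitochondrial genes, was 2.90-fold higher. It was called in 2 of the 8 fits, with an adjusted p (edgeR) up to 0.108 without WT CDDO-Me 3. Of 20 bile acid genes, Cyp8b1, the sterol 12-alpha-hydroxylase, Cyp39a1 and Acox2 were called lower, by 2.41-, 2.1- and 1.78-fold, and none was called higher. Cyp39a1 was called in 2 of the 8 fits, with an adjusted p (edgeR) up to 0.0796 without WT CDDO-Me 1.

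**Figure D3:**
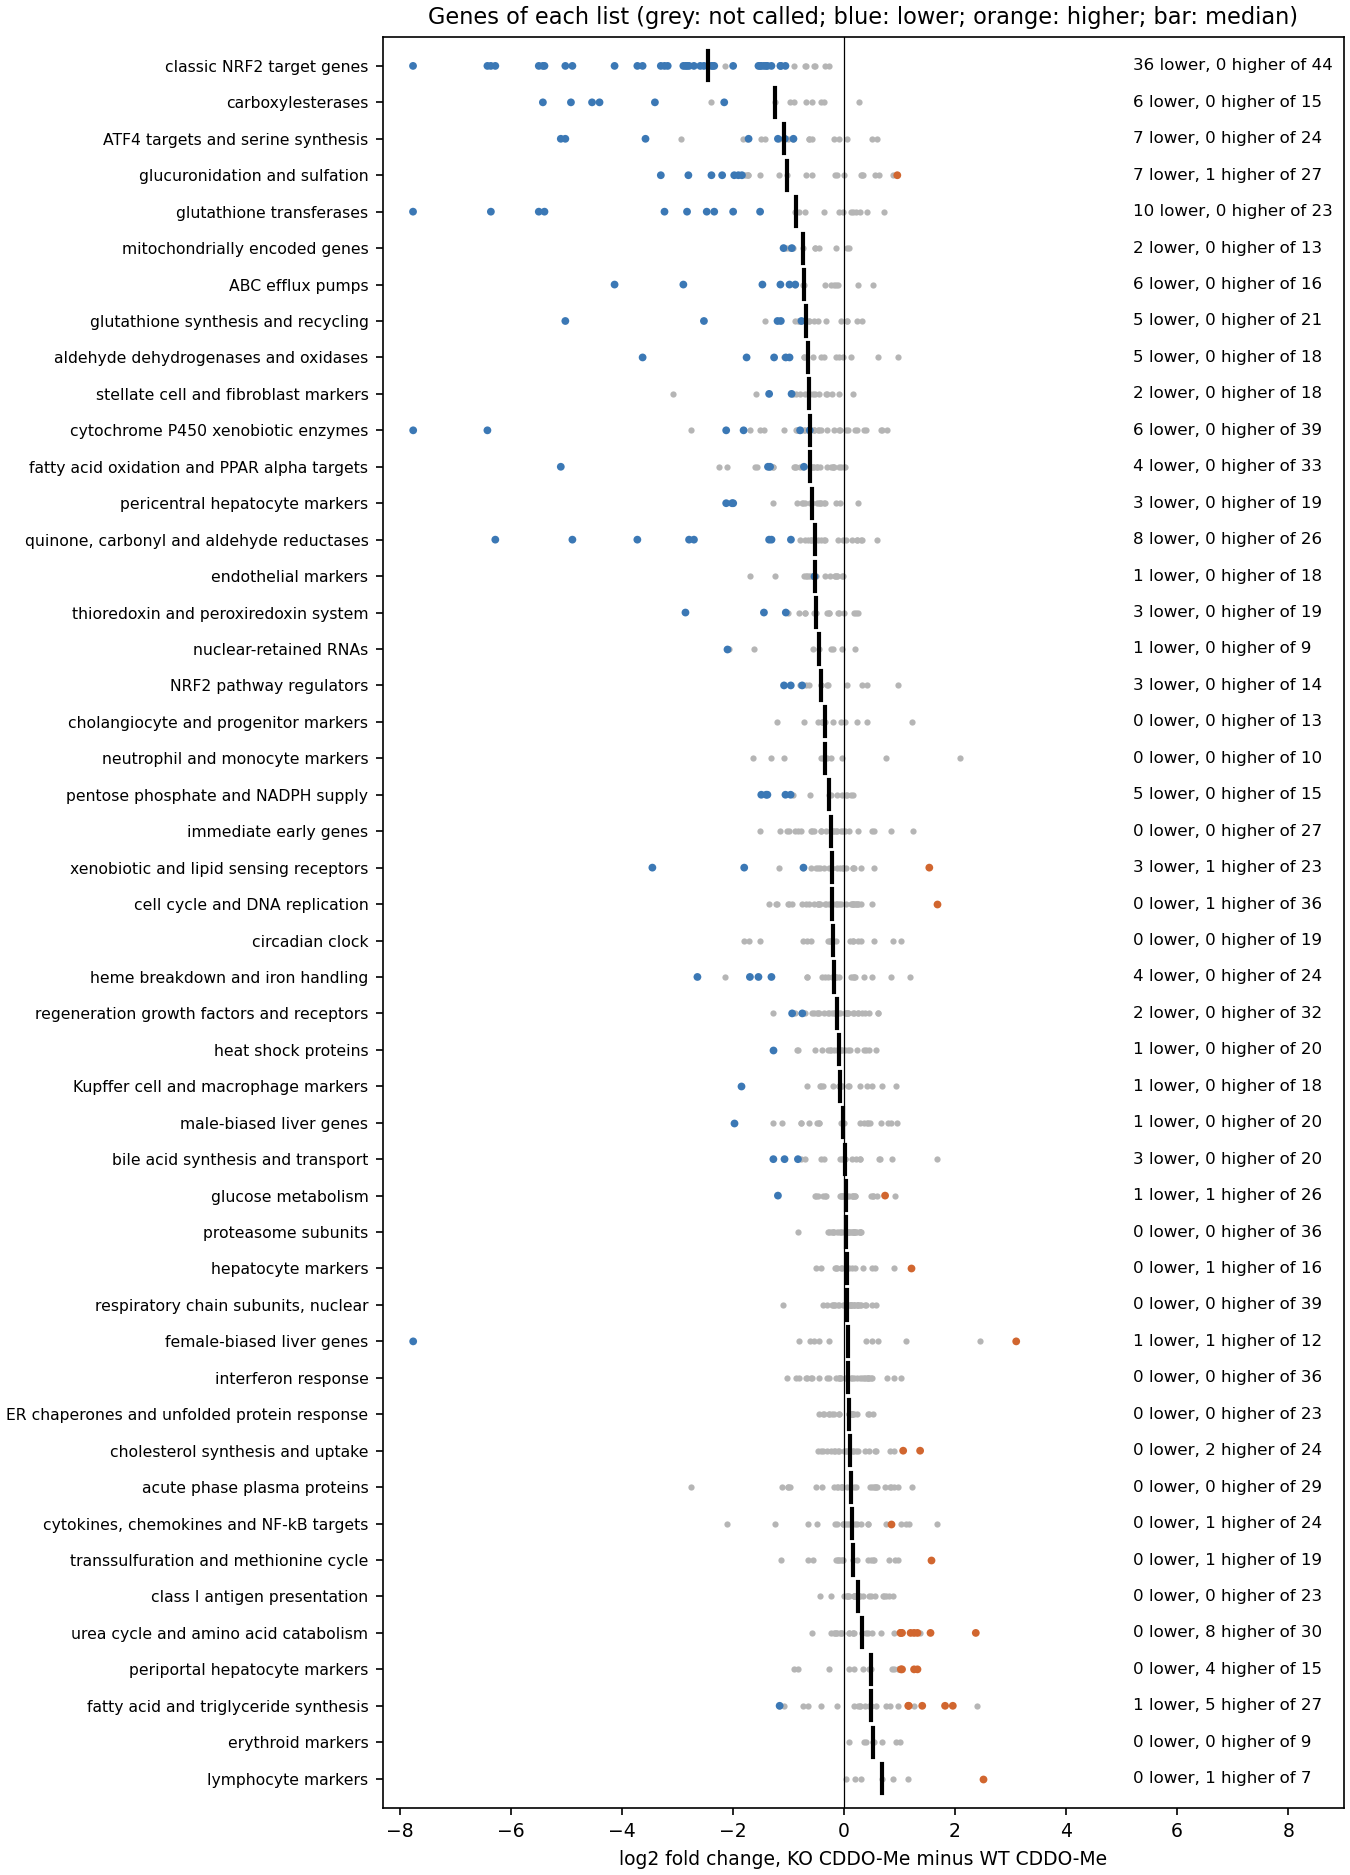
Log2 fold change of KO CDDO-Me minus WT CDDO-Me (horizontal axis) for each tested gene of the lists with at least 5 tested genes. Points are genes, grey where not called, blue where called lower and orange where called higher; bars are medians and the text at the right gives the counts, from 36 lower of 44 classic NRF2 targets at the top to 1 higher of 7 lymphocyte markers at the bottom.

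Some targets of ATF4 and serine synthesis genes were also called lower. Of 24 genes, 7 were called lower and none higher, with a median of -1.07. Psat1, an enzyme of serine synthesis, had 19.6, 11.6, 5.06 and 6.79 CPM in WT CDDO-Me and 1.05, 0.670, 1.21 and 0.688 CPM in KO CDDO-Me, 11.9-fold lower (adjusted p = 0.00134, edgeR). Fgf21, a fasting and stress hormone of the liver, had 90.2, 7.89, 15.1 and 21.8 CPM in WT CDDO-Me and 0.622 to 1.37 CPM in KO CDDO-Me. WT CDDO-Me 1 was highest for both genes, and KO values stayed below every WT value. Without that library the Fgf21 difference was 15.0-fold in place of 34.2-fold. Trib3, Pck2 and Atf5 were 3.29-, 2.28- and 2.09-fold lower, and the list also holds Slc7a11 and Shmt2 (1.88-fold lower). Trib3, Pck2 and Atf5 were called in 5, 3 and 2 of the 8 fits, with adjusted p-values (edgeR) up to 0.0620 without KO CDDO-Me 1, 0.0970 without WT CDDO-Me 1 and 0.0784 without KO CDDO-Me 3. None of 23 chaperone genes of the endoplasmic reticulum was called, and of 20 heat shock genes only Hspb1 was (2.42-fold lower), in none of the 8 fits without a library (adjusted p up to 0.147 without WT CDDO-Me 3, edgeR).

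Genes of fatty acid metabolism were called in both directions. Of 27 genes for fatty acid and triglyceride synthesis, 5 were called higher and 1 lower, with a median of 0.49. Srebf1, the transcription factor that drives this pathway, had 94.2, 84.5, 104 and 90.2 CPM in WT CDDO-Me and 408, 424, 274 and 346 CPM in KO CDDO-Me. The KO values were 3.89-fold higher without overlap (log2 fold change 1.96 ± 0.33, adjusted p = 0.00272, edgeR). Acly, which makes cytosolic acetyl-CoA, had 200 to 240 CPM in WT CDDO-Me and 503 to 677 CPM in KO CDDO-Me. Thrsp had 58.6 to 109 CPM in WT CDDO-Me and 161, 110, 421 and 480 CPM in KO CDDO-Me, so that KO CDDO-Me 2 lay just above the highest WT library. Acacb and Elovl5 were 2.25- and 2.23-fold higher, and Pnpla2, the triglyceride lipase, was 2.23-fold lower. Of 24 cholesterol genes, Insig1 and Sc5d were called higher, by 2.59- and 2.1-fold, and none lower. Set against WT CDDO-Me 1 alone, the median of the synthesis list was 0.49 again and none of its genes was called. Srebf1 and Acly kept their calls in all 8 fits without a library. Thrsp, Acacb, Insig1, Sc5d, Elovl5 and Pnpla2 did so in 2, 2, 2, 4, 5 and 6 fits. Their highest adjusted p-values (edgeR) were 0.142, 0.0872, 0.0839 and 0.0598 for Thrsp, Insig1, Sc5d and Pnpla2 without WT CDDO-Me 4, 0.0922 for Acacb without KO CDDO-Me 3 and 0.0692 for Elovl5 without WT CDDO-Me 3.

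Of 33 genes for fatty acid oxidation and PPAR alpha targets, 32 had a negative log2 fold change and 4 were called lower, none higher, with a median of -0.61. These were Fgf21, Pex11a, which takes part in peroxisome division (2.58-fold), and the peroxisomal thiolases Acaa1b (2.51-fold) and Acaa1a (1.65-fold). Acaa1b had 403 to 556 CPM in WT CDDO-Me and 102, 94.3, 254 and 313 CPM in KO CDDO-Me, with KO CDDO-Me 1 and 2 again below 3 and 4. It was called in 2 of the 8 fits, with an adjusted p (edgeR) up to 0.0921 without KO CDDO-Me 1. Of 26 genes of glucose metabolism, Pck2 was called lower and Ppp1r3b, a glycogen-targeting subunit, 1.67-fold higher; the latter held in 1 of the 8 fits, with an adjusted p (edgeR) up to 0.142 without WT CDDO-Me 4.

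Part of the genes for amino acid breakdown were called higher in KO CDDO-Me. Of 30 genes of the urea cycle and amino acid catabolism, 8 were called higher and none lower, with a median of 0.32. Tat, tyrosine aminotransferase, had 1217, 1498, 1365 and 1360 CPM in WT CDDO-Me and 2775, 3735, 3119 and 2875 CPM in KO CDDO-Me. The KO values were 2.30-fold higher without overlap (adjusted p = 0.00430, edgeR). Got1, aspartate aminotransferase, had 147, 108, 141 and 162 CPM in WT CDDO-Me and 498, 504, 344 and 298 CPM in KO CDDO-Me. Acmsd, of the tryptophan pathway, was 5.19-fold higher, Sds, which deaminates serine, 2.50-fold, Gls2, liver glutaminase, 2.40-fold and Hal, which deaminates histidine, 2.06-fold. Ass1, of the urea cycle, and Kynu, of the tryptophan pathway, were 2.04- and 2.03-fold higher; Kynu is outside the 6 largest and was added after its value was seen. In Acmsd, Sds, Gls2 and Hal, KO CDDO-Me 1 and 2 lay above 3 and 4: Gls2 had 524, 468, 239 and 215 CPM. Ass1, Sds, Gls2 and Hal were called in 0, 1, 2 and 6 of the 8 fits without a library. The highest adjusted p-values (edgeR) were 0.145 for Ass1 without WT CDDO-Me 2, 0.156 and 0.101 for Sds and Gls2 without KO CDDO-Me 2, and 0.0635 for Hal without WT CDDO-Me 3. Set against WT CDDO-Me 1 alone, the median of the list was 0.49 and none of its genes was called. Got1 was also the 1 gene called of 19 for transsulfuration and the methionine cycle.

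**Figure D4:**
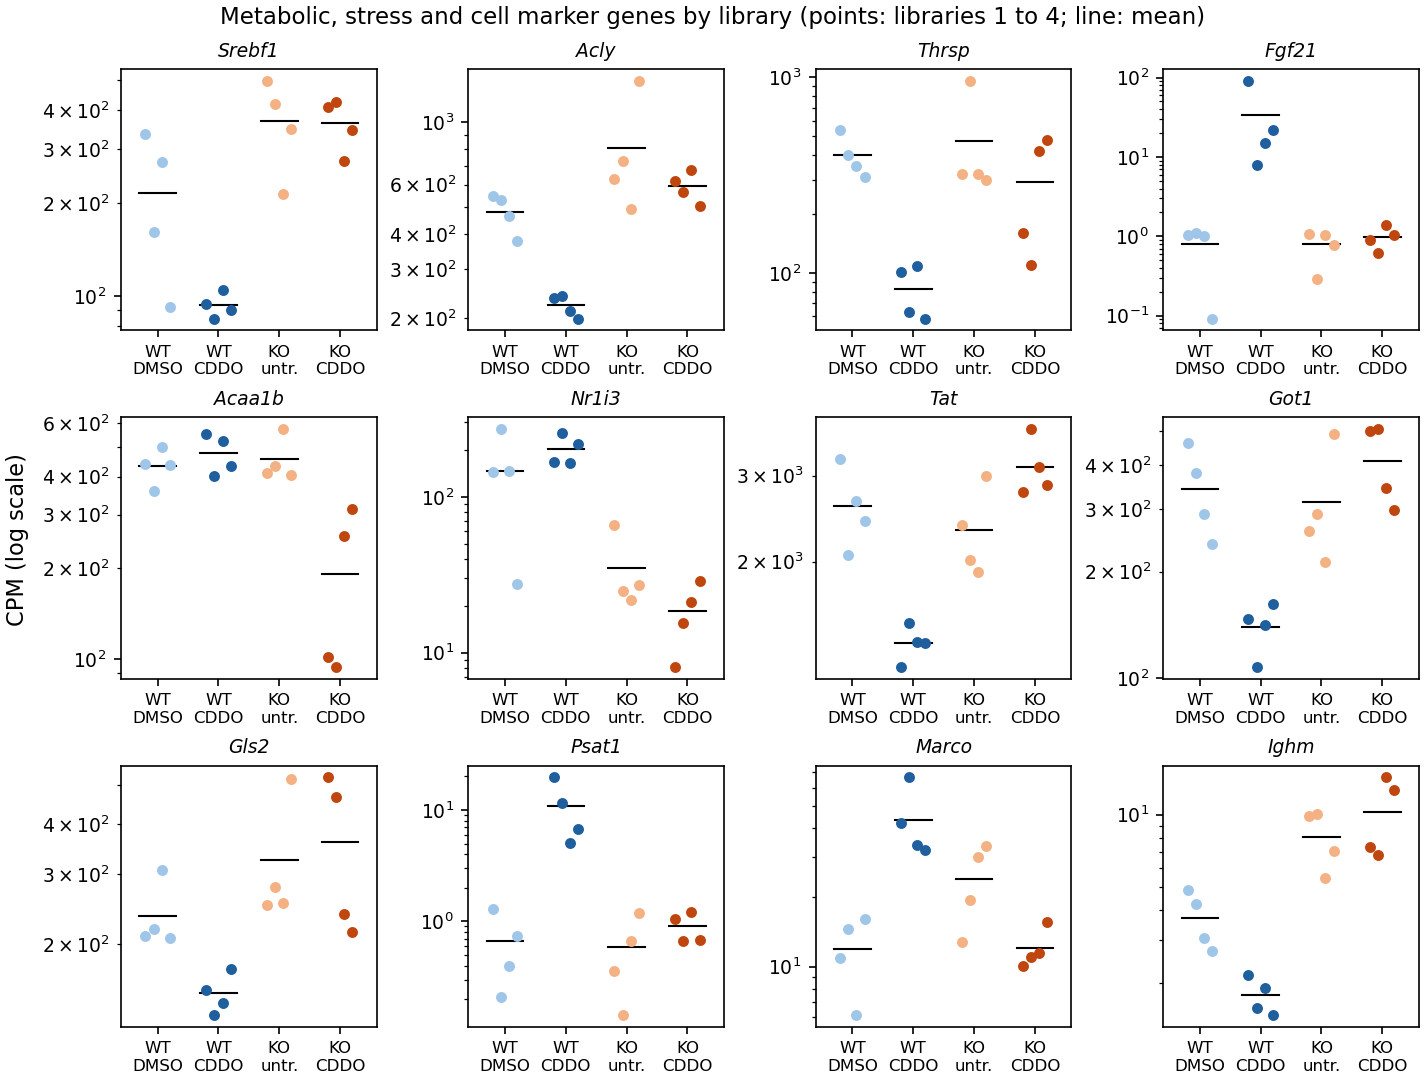
CPM (vertical axes, log scale) of 12 metabolic, stress and cell marker genes in each library of the 4 groups, with points for libraries 1 to 4 and a line for the mean. For Srebf1, Acly, Tat, Got1, Gls2 and Ighm WT CDDO-Me holds the lower values of the comparison, and in KO CDDO-Me libraries 1 and 2 stand apart from 3 and 4 for Thrsp, Acaa1b and Gls2.

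Markers of position in the liver lobule leaned in opposite directions. Of 15 markers of hepatocytes near the portal vein, where urea is made, 4 were called higher and none lower (median 0.48). Their summed level was 50550 to 65800 CPM in WT CDDO-Me and 68620 to 87850 CPM in KO CDDO-Me. A large part of that sum is Alb, which is also on the list of general hepatocyte markers and was not called. Alb alone took 3.90% to 4.85% of counts in WT CDDO-Me and 5.05% to 6.49% in KO CDDO-Me. Of 19 markers of hepatocytes near the central vein, 18 had a negative log2 fold change and 3 were called lower, none higher (median -0.58). Their summed level was 5140 to 9076 CPM in WT CDDO-Me and 2702 to 6018 CPM in KO CDDO-Me. Set against WT CDDO-Me 1 alone, the median was -0.13 for the central markers and 0.60 for the portal markers, with none called. Besides Cyp1a2, the central markers called were the transcription factors Tbx3 and Sp5, the latter at most 1.03 CPM and within 10 Mb of Nfe2l2. Tbx3 had 25.9 to 47.3 CPM in WT CDDO-Me and 5.26 to 14.7 CPM in KO CDDO-Me. Tbx3 and Sp5 were called in 3 and 1 of the 8 fits, with adjusted p-values (edgeR) up to 0.0784 without KO CDDO-Me 3 and 0.150 without KO CDDO-Me 2. The 16 general hepatocyte markers had a median of 0.06, with Tat called higher.

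Markers of other liver cells moved little gene by gene, but some lists leaned one way. In bulk liver, fewer cells of a type and less RNA per cell cannot be told apart. All 18 endothelial markers had a negative log2 fold change (median -0.52, summed 909.9 to 1036 CPM in WT CDDO-Me and 640 to 939.6 CPM in KO CDDO-Me), and Stab1, a scavenger receptor of sinusoidal endothelium, was called lower by 1.45-fold. Of 18 stellate cell and fibroblast markers, 17 were negative (median -0.63, summed 606.8 to 754 CPM and 354.8 to 508.4 CPM), and Ecm1 and Pdgfra were called lower by 2.54- and 1.92-fold. In KO untreated against WT DMSO, 16 of the 18 endothelial and 14 of the 18 stellate and fibroblast markers were positive. Among 18 Kupffer cell and macrophage markers the median was -0.07, or 0.05 on log2(FPKM + 0.1) (summed 908.9 to 1166 CPM and 787 to 1069 CPM). Only Marco, a scavenger receptor of macrophages, was called: it had 42.0, 66.6, 33.7 and 32.1 CPM in WT CDDO-Me and 10.1, 11.0, 11.5 and 15.6 CPM in KO CDDO-Me, 3.63-fold lower. Stab1 and Pdgfra were called in 1 of the 8 fits each, with adjusted p-values (edgeR) up to 0.153 without KO CDDO-Me 2 and 0.140 without WT CDDO-Me 4.

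Ighm, the heavy chain of immunoglobulin M, was higher in KO CDDO-Me, with 7.37, 6.80, 14.3 and 12.7 CPM against 2.16, 1.56, 1.90 and 1.47 CPM in WT CDDO-Me. The groups were 5.68-fold apart (adjusted p = 8.11e-05, edgeR). Of 20 lymphocyte markers 7 passed the filter on low counts, all with a positive log2 fold change. Set against WT CDDO-Me 1 alone, 3 of these 7 were negative, with a median of 0.555. No lymphocyte marker was at 0, and all 20 summed to 5.13 to 8.17 CPM in WT CDDO-Me and 14.9 to 21.8 CPM in KO CDDO-Me. The class II genes H2-Aa and H2-Eb1, which B cells and macrophages express and which were named after their values were seen, were 2.75- and 2.80-fold higher, in 4 and 6 of the 8 fits, with adjusted p-values (edgeR) up to 0.0796 and 0.0608 without WT CDDO-Me 3. The part of these cells in the results was not tested. None of the cholangiocyte, neutrophil or erythroid markers was called, and of the neutrophil markers Ctsg and Camp had no count in the 8 libraries. Of the pancreatic, adipose and mesothelial markers, 2 passed the filter and Cela1 was 3.00-fold higher, in 2 of the 8 fits (adjusted p up to 0.110 without KO CDDO-Me 3, edgeR).

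No gene was called among the interferon response (36 genes), acute phase proteins (29), class I presentation (23), immediate early genes (27), proteasome subunits (36), nuclear respiratory chain subunits (39) or the circadian clock (19). With the 4 further lists that had no call, 264 genes in all, 26 had an unadjusted p under 0.05 by edgeR and 7 were called by DESeq2. Over all 16206 genes tested those numbers were 2769 and 1125. Of 36 cell cycle genes E2f2 was called higher, at 0.459 to 1.04 CPM in WT CDDO-Me and 1.58 to 3.64 CPM in KO CDDO-Me. Of 32 growth factors and receptors of regeneration, Tnfrsf1a, a receptor of tumour necrosis factor, and Notch1 were called lower, by 1.91- and 1.68-fold, and none higher. Of 24 cytokine and NF-kB target genes Il18 was called, 1.81-fold higher. E2f2, Tnfrsf1a, Notch1 and Il18 were called in 3, 5, 1 and 1 of the 8 fits. Their highest adjusted p-values (edgeR) were 0.0906 without KO CDDO-Me 2, 0.0777 without WT CDDO-Me 4, and 0.110 and 0.0762 without WT CDDO-Me 1. Of the 13 mitochondrially encoded genes, mt-Atp8 and mt-Nd4l were called lower by 2.12- and 1.92-fold, in 4 and 3 of the 8 fits. These are short, overlapping genes, and the adjusted p (edgeR) reached 0.0761 for mt-Atp8 without WT CDDO-Me 4, the library rich in mitochondrial RNA, and 0.0884 for mt-Nd4l without WT CDDO-Me 3. Of 9 nuclear-retained RNAs the 1 called was Gm26917, an annotated long RNA that overlaps ribosomal RNA sequence, with 17713 to 27375 CPM in WT CDDO-Me and 1732 to 7765 CPM in KO CDDO-Me; it was called in 3 of the 8 fits, with an adjusted p up to 0.0593 without KO CDDO-Me 4 (edgeR). Of the male-biased liver genes only Ugt2b38 was called, and of the female-biased ones Cyp2a4 lower and Cyp17a1 higher.

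The protein-coding genes with the largest rise in KO CDDO-Me over WT CDDO-Me belonged to no single list. Fabp5, a fatty acid binding protein, had 28.8, 12.6, 31.4 and 21.3 CPM in WT CDDO-Me and 186, 106, 246 and 135 CPM in KO CDDO-Me, 7.14-fold higher (adjusted p = 0.00775, edgeR). With the ribosomal RNA split as a term in the fit, its log2 fold change was 1.89 and it was not called (adjusted p = 0.163, edgeR). Cyp17a1, a steroid hydroxylase, had 2.53 to 5.51 CPM in WT CDDO-Me and 56.5, 57.9, 15.0 and 9.73 CPM in KO CDDO-Me, again split between libraries 1 and 2 and libraries 3 and 4. Chrna4, a nicotinic receptor subunit, was 14.3-fold higher, with 0.316 to 0.648 CPM in WT CDDO-Me and 2.44 to 13.5 CPM in KO CDDO-Me. Ptgds, prostaglandin D synthase, and Atp4a, of the gastric proton pump, were 11.2- and 11.1-fold higher but at most 8.94 CPM in any of the 8 libraries; Atp4a was 25.4-fold higher without WT CDDO-Me 1. Slc13a2, a dicarboxylate transporter, Grm8, a glutamate receptor, and Dntt, a DNA polymerase of lymphoid cells, were 6.02-, 5.43- and 4.05-fold higher. Chic1 and Dpy19l3, a mannosyltransferase, were 3.97- and 3.89-fold higher. Cyp17a1 and Chrna4 were called in 2 of the 8 fits each, with adjusted p-values (edgeR) up to 0.0850 without WT CDDO-Me 3 and 0.0905 without KO CDDO-Me 3. Cyp17a1, Chrna4, Slc13a2 and Grm8 also lost their calls with the ribosomal RNA split as a term, while Ptgds and Atp4a kept theirs. Among the lower genes, Tsku, a secreted proteoglycan made by liver, and Adora1, the adenosine A1 receptor, were 27.2- and 14.6-fold lower, and Vtcn1, an immune checkpoint ligand, was 55.3-fold lower at 3.21 to 5.43 CPM in WT CDDO-Me, or 142-fold without KO CDDO-Me 4. Tsku and Adora1 were named after their values were seen.

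Without the compound the genotype contrast was KO untreated against WT DMSO, where vehicle and injection go with the genotype. It rested on the other 8 libraries, so the 2 contrasts share none. Both were tested in the same fit with a shared estimate of each gene's spread, so their calls are not independent. There 223 genes (1.38%) were called, 157 (0.969%) lower in KO untreated than in WT DMSO and 66 (0.407%) higher. Without KO untreated 2, 3 or 4 that number was 104 to 131. Of the 362 genes lower under CDDO-Me, 70 were also called lower without it, which is 19.3% of the former and 44.6% of the latter list. Of the 172 higher genes, 21 were also called higher, 12.2% and 31.8%. None was called in opposite directions. Direction was shared more widely than calls: 329 of the 362 and 144 of the 172 had the same sign without the compound, with medians of -0.47 and 0.40. The share with the same sign over all genes tested was not counted.

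The difference between the 2 contrasts, which also holds any effect of vehicle and injection, was itself tested. It was called for 21 genes (0.130%), all with a lower KO value relative to WT under CDDO-Me. That number was 32 without WT DMSO 4 and 48 without KO untreated 1. Cbr3 showed the largest such difference among the genes named: KO minus WT was -6.28 under CDDO-Me and 0.72 without it, a change of -7.00 (adjusted p = 0.000198, edgeR). Akr1b8 stood at -2.79 and -0.01, and Cbr1 at -2.70 and -0.22, so that without CDDO-Me the genotypes were close. Gclc stood at -2.52 and -0.45, Srxn1 at -2.85 and -0.71 and Abcc4 at -2.89 and -0.75. Other genes already differed without the compound and differed more under it: Nqo1 at -4.89 and -2.31, Gsta1 at -7.76 and -2.35, Gstm1 at -5.39 and -2.43, and Gstm3 at -6.36 and -2.19. Abcc3 at -4.13 and -2.83, Aox1 at -3.62 and -2.30 and Ces1b at -4.92 and -3.31 were called in both contrasts, and the difference of the contrasts was not called for them. Me1 stood at -1.40 and -1.43. In the other direction no difference was called by edgeR, with 579 at an unadjusted p under 0.05, and 62 were called by DESeq2. Srebf1 stood at 1.96 under CDDO-Me and 0.78 without, and Tat at 1.2 and -0.16.

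**Figure D5:**
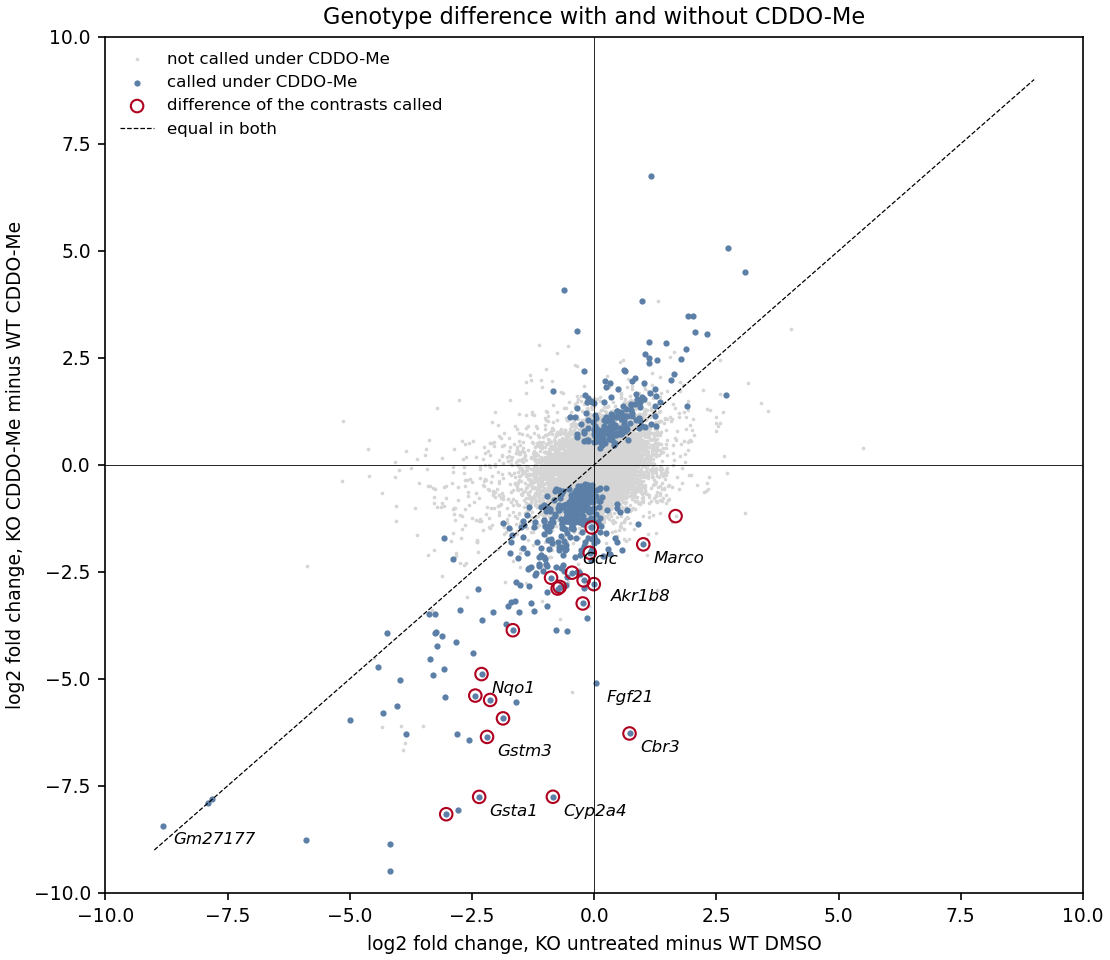
Log2 fold change of KO minus WT under CDDO-Me (vertical axis) against that of KO untreated minus WT DMSO (horizontal axis) for each gene tested. Blue points are genes called under CDDO-Me, the dashed line marks equal differences, and the 21 red rings, where the difference of the contrasts was called, all lie below that line.

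Genes near Nfe2l2 and a block on chromosome 14 were read separately. Within 10 Mb of Nfe2l2, 5 of 109 genes tested were called (4.59%, against 3.30% of all genes): Nfe2l2, Sp5, Rapgef4, Cers6 and Gm38377, all lower. Cers6, a ceramide synthase, had 34.4 to 76.9 CPM in WT CDDO-Me and 21.4 to 26.8 CPM in KO CDDO-Me, and Rapgef4 had 328 to 363 and 152 to 280 CPM. Gm38377, a transcript model inside the span of Cers6, was 7.44-fold lower. Cers6, Rapgef4 and Gm38377 were called in 1, 1 and 0 of the 8 fits, with adjusted p-values (edgeR) up to 0.132 without WT CDDO-Me 4, 0.153 without KO CDDO-Me 2 and 0.157 without WT CDDO-Me 1.

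On chromosome 14, 33 of 522 genes tested were called (6.32%), and the 5 Mb from 65000001 to 70000000, picked for its number of calls, held 10 of 40. Of the 10, 9 were called lower. In 8 of the 40 genes tested there, every KO library of the series lay below every WT library, with and without CDDO-Me. Of all 362 genes called lower, 88 did so (24.3%). That share counts called genes only, so it is no background for the 8 of 40. The share over all genes tested was not counted. Gm27177, an antisense RNA at 69582164 to 69683286 on the minus strand (GRCm38), had 10.7, 8.33, 7.35 and 6.24 CPM in WT CDDO-Me and 0.0405, 0, 0.0319 and 0 CPM in KO CDDO-Me. Its log2 fold change was -8.43 under CDDO-Me and -8.83 without it. Gm16867, a coding gene model at 69363504 to 69503362 on the minus strand, had 9.36 to 14.4 CPM and 0.223 to 0.607 CPM. Gm37513 and Gm38378 had no count in any KO CDDO-Me library, which makes them at least 37.5- and 39.9-fold lower, taking a floor of 3 counts over the group. Gm37094 and Gm20236 were 15.9- and 15.2-fold lower, the former 24.5-fold without KO CDDO-Me 4. The block lies around Entpd4 and a near-identical annotated copy of it, so reads here may be divided among copies.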

How the data were processed

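Liver RNA of 16 libraries (4 groups of 4) was depleted of ribosomal RNA and sequenced from directional libraries, per the labels' protocols. The deposited tables hold raw counts per gene and FPKM values for 33730 Ensembl gene IDs. The submitters' processing notes name TopHat2 2.1.0 and HTSeq 0.6.1p1, the build GRCm38.p5, cutadapt 1.2.1, CASAVA 1.8.2 and DESeq2, with no role given. Strand use in counting is not given in the sources used here. FPKM values that the authors deposited follow from the deposited counts with 1 length per gene (largest relative deviation 8.7e-07), so they hold no composition scaling. GENCODE M21 (GRCm38) matched 33629 IDs and gave symbols and coordinates, and 26 symbols belong to more than 1 ID.

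Counts were tested with edgeR 4.0.16 (R 4.3.3): TMM scaling, filterByExpr by group, the quasi-likelihood fit over all 16 libraries with 12 residual degrees of freedom, and Benjamini-Hochberg adjustment over 16206 genes. All groups entered so that they share 1 estimate of the spread. CPM use TMM-scaled library sizes, a standard error is the log2 fold change divided by the root of its F statistic, and "called" means an adjusted p under 0.05. DESeq2 1.42.0 and limma 3.58.1, on log2(FPKM + 1) and log2(FPKM + 0.1) with a minimum mean FPKM of 0.1, were among the alternatives. The test was tried on simulated counts first. It recovered 42 of 100 genes changed 2-fold and 82 of 100 changed 4-fold, with 12 false calls. No pair of libraries agreed within sampling noise (lowest chi-square per degree of freedom 15.1).

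Named genes follow a rule: Nfe2l2, 6 standard NRF2 targets, the 12 lowest and 12 highest called protein-coding genes with a mean of at least 1 CPM, up to 6 called genes per list by size, the 10 most abundant called genes by FPKM, called genes near Nfe2l2 or in dense windows of 5 Mb, and the largest called differences between contrasts; models with only a Gm or Rik name were left out of the groups by size. Exceptions are marked in the text, and 1 gene that the rule names is not reported here. The comparison, its lists and its rules were chosen with earlier results of these data known. Promoter windows came from RefSeq.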

Additional observations from a re-analysis of the deposited data

Results flagged for a closer look

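One library stood apart from the other 3 of its group in 16 of 288 groups of 4 tested (144 genes named in the text, in WT CDDO-Me and KO CDDO-Me), by Dixon's criterion on the gap to the nearest library; chance alone flags about 1 group in 20. Hmox1 stood high in library 4 of both groups, at 266 CPM against 95.0 to 105 CPM in WT CDDO-Me and at 51.2 CPM against 24.1 to 28.5 CPM in KO CDDO-Me. WT CDDO-Me 1, the deepest library, stood high for Fgf21 (90.2 CPM against 7.89 to 21.8) and Gm38377 (13.7 against 4.46 to 5.78). The same library stood low for Akr1c19 (121 CPM against 168 to 177) and Ugt2b38 (73.3 against 205 to 230). WT CDDO-Me 2 was low for Cyp3a59, at 21.7 CPM against 35.3 to 36.9. WT CDDO-Me 3 was high for Dpy19l3, at 17.6 CPM against 6.92 to 7.94, and for Ces2c, at 192 CPM against 75.4 to 89.0. KO CDDO-Me 1 was low for Aox1 (36.3 CPM against 41.6 to 41.8) and Ppargc1a (20.1 against 28.9 to 30.3). KO CDDO-Me 3 was high for Pgd, at 33.2 CPM against 25.4 to 26.6. KO CDDO-Me 4 was high for Cyp2a4 (0.344 CPM against 0.0956 to 0.121), Ptgds (8.94 against 3.04 to 3.35) and Acaa1a (107.5 against 85.5 to 86.7), and low for Hspb1 (3.58 against 5.84 to 6.18).

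For 15 named genes the KO minus WT difference under CDDO-Me differed from that without it, by a test of the difference itself (edgeR, adjusted p). That test also takes in any effect of vehicle and injection, which only WT DMSO received among the groups without the compound. The differences on the log2 scale were -7.00 for Cbr3, -6.91 for Cyp2a4, -5.41 for Gsta1, -4.16 for Gstm3, -3.37 for Gsta2, -2.96 for Gstm1, -2.78 for Akr1b8, -2.58 for Nqo1 and -2.48 for Cbr1. They were -2.20 for Adora1, -2.15 for Srxn1, -2.14 for Abcc4, -2.07 for Gclc and -1.75 for Blvrb. The adjusted p-values ran from 0.000198 for Cbr3 to 0.0183 for Nqo1. Marco, the macrophage scavenger receptor, was at -2.86 (adjusted p = 0.0155). Its CPM were 42.0, 66.6, 33.7 and 32.1 in WT CDDO-Me and 10.1 to 15.6 in KO CDDO-Me, while without the compound KO stood higher by 1.00 on the log2 scale, with an adjusted p of 0.15.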

How the results depend on the processing

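All 142 called genes that the text names kept their direction wherever they were tested. Of these, 85 kept their call without each of the 8 libraries in turn and 8 in none. With the ribosomal RNA split as a term in the fit, 86 of the 142 kept their call and 56 lost it. Leaving out each of the 16 libraries in turn (7 of the controls added after seeing the data) gave 265 to 820 genes called in all under CDDO-Me, with 184 to 521 lower and 79 to 299 higher, the largest without WT DMSO 4. The ranges were 104 to 271 without the compound and 18 to 48 for the difference of the contrasts. DESeq2 called 1125 genes under CDDO-Me (657 lower, 468 higher), 657 without it and 176 for the difference. Fitting only the 8 libraries called 2045 (1071 and 974), leaving out the 4 intron-rich control libraries 1482 (757 and 725), and an intronic share covariate 2078 (1172 and 906). A replicate block called 811 (270 higher) and 42 for the difference; same-numbered libraries correlated at -0.14 to 0.20, so the numbers were not taken as pairs; with the block Hmox1 was called (adjusted p = 0.0109, edgeR), Thrsp was not (0.0619), and no other named call changed. limma called 859 on log2(FPKM + 1) with 562 higher, 896 on log2(FPKM + 0.1) with 592 higher, and 483 higher on log2(FPKM + 1) with no filter. Upper quartile scaling called 276 higher, and no filter on low counts 38 for the difference. The ribosomal RNA split as a term called 100 higher, its low set alone 138 (123 and 15), and a test beyond a log2 fold change of 1 called 91 (82 and 9). Added after seeing the data, omitting WT CDDO-Me 1 and 4 called 158 (143 and 15), KO CDDO-Me 1 and 2 140 (108 and 32), and KO CDDO-Me 3 and 4 310 (209 and 101). The cause of these shifts was not tested. With 4 libraries a group, a missing call does not show that a gene did not differ.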

Other observations

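Tomm40l was the called gene that lay closest to Nr1i3. Its annotated span (chromosome 1, 171216011 to 171222514, minus strand, GRCm38) overlaps that of Nr1i3 (171213970 to 171220701, plus strand). Tomm40l, an outer mitochondrial membrane protein, had 7.43, 5.13, 5.61 and 6.70 CPM in WT CDDO-Me and 23.5, 24.9, 24.1 and 21.7 CPM in KO CDDO-Me, 3.76-fold higher, while Nr1i3 was 10.9-fold lower. Its adjusted p was 1.58e-07 by edgeR and stayed at or below 2.67e-06 in the 8 fits that left out 1 library. Without CDDO-Me it was also called higher in KO, by 1.03 on the log2 scale (adjusted p = 0.000752, edgeR), and there Nr1i3 stood at -2.07 with an adjusted p of 0.072 (edgeR). Whether reads of the 2 strands were kept apart in counting is not given in the sources used here, and Tomm40l was named after its values were seen.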
